A study of Arabidopsis thaliana with 35 samples.

Results

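The response of *clf swn* shoot tissue to wounding combined with the synthetic auxin 2,4-D was described from 6 of the 35 RNA-seq libraries of the experiment. These were 3 libraries from seedlings that were both cut and given 2,4-D (*cs*-WA) and 3 from seedlings given the mock treatment (*cs*-M), chosen by their sample labels. All 28775 genes of the count table were considered, of which 21115 passed a filter on low counts and were tested. Both groups carried the *clf-29* and *swn-3* alleles which disrupt CLF and SWN, the catalytic subunits of Polycomb Repressive Complex 2 (PRC2) in the sporophyte, the plant body outside the gametophytes and endosperm. Such double mutants yield no seed, and the seedlings were picked by their appearance among the progeny of plants heterozygous for *clf* and homozygous for *swn*. They were 14 days old when treated and were grown under long days on agar medium. In *cs*-WA the shoot was cut from the root through the upper hypocotyl and kept on medium with 5 µM 2,4-D, whereas in *cs*-M whole, uncut seedlings were kept on medium with the solvent DMSO. After 55 h, the roots, cotyledons and true leaves were cut away and the regions of the shoot apical meristem and the leaf bases were harvested. Used for comparison were *clf swn* tissue treated with 2,4-D alone (*cs*-A, uncut) or wounded alone (*cs*-W), and untreated *clf swn* tissue (*cs*-ctrl). Col-0 wild-type tissue given the combined or the mock treatment (WT-WA and WT-M) was used as well. The *cs*-ctrl tissue was taken at the start, without the 55 h of culture, so that comparisons with it also differ in time. The treated groups had 3 replicates each. The 6 libraries of *cs*-ctrl came in sets that share the replicate numbers, and the model took each of these libraries as a separate unit.

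PRC2 places trimethylation on lysine 27 of histone H3 and keeps many developmental genes silent outside the organ or stage in which they are used. Auxin acts by bringing Aux/IAA repressors to the TIR1/AFB receptors for degradation, which frees auxin response factors (ARFs) bound at their target promoters. Among the quickest targets are the *Aux/IAA* genes themselves and the *GH3* genes, whose enzymes conjugate auxin to amino acids, so that the pathway restrains itself. 2,4-D enters this pathway as an auxin that plants clear slowly, and is the classical trigger of callus and of somatic embryos in culture. Cutting a plant organ brings jasmonate, ethylene and auxin signals to the cut, where roots, shoots or callus can regenerate.

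*CLF* was at 0.995 to 1.92 CPM (counts scaled to 1000000 counts of the library) in the 6 libraries, against 29.5 to 55.6 CPM in the wild-type libraries. *SWN* was at 23.8 to 32.1 CPM, against 39.6 to 68.7 CPM in wild type. Totals ran from 11436071 to 15661317 counts on genes, so that 3 counts, the floor used for fold changes, stood for 0.192 to 0.262 CPM. No pair of replicates was alike within sampling noise, and the chi-square per degree of freedom between replicates of *cs*-WA or of *cs*-M was 8.80 to 24.996. The *cs*-WA library of replicate 1 stood apart from the other *cs*-WA libraries for some defence genes, and results that rest on it are given with and without it.

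Of the 21115 genes tested, 2071 were higher (9.81%) and 1792 were lower (8.49%) in *cs*-WA than in *cs*-M. A call required an adjusted p under 0.05 (edgeR's quasi-likelihood test in 1 model of all 10 groups, Benjamini-Hochberg adjustment) together with a fitted change of 0.6 or more, up or down, on the log2 scale. The genes that rose moved further than those that fell. Among them, 995 were at least 4-fold higher and 466 at least 16-fold higher by the fitted fold change, against 231 and 33 lower genes. The median log2 fold change was 1.91 among the higher and -0.95 among the lower genes, and -0.02 over all genes tested. For 9801 genes (46.4%) the CPM of the 3 *cs*-WA libraries did not overlap those of the 3 *cs*-M libraries, so that a lack of overlap alone was common. The count of lower genes was 1192 without *cs*-WA replicate 2. Among genes with at least 10 counts in every library of the 2 groups, 1124 were higher and 1468 lower. With the adjusted p alone, 3080 were higher and 3442 lower. With a log2 ratio of at least 0.6 between the nearest libraries as well, 1576 were higher and 676 lower. Which direction held more genes thus depended on the filter and the thresholds.

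**Figure D1:**
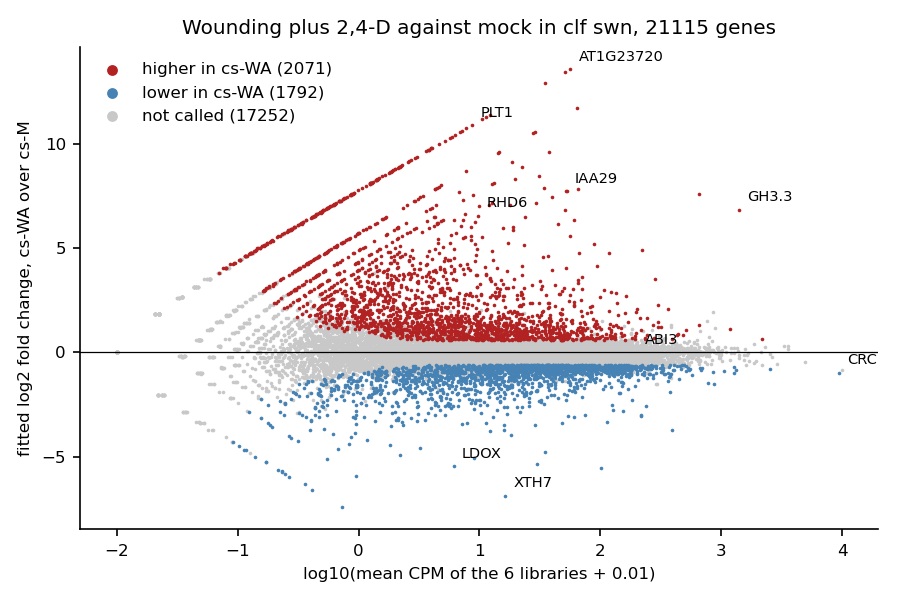
Fitted log2 fold change of *cs*-WA over *cs*-M (vertical) against the log10 of the mean CPM of the 6 libraries plus 0.01 (horizontal) for the 21115 genes tested, each a point. The 2071 genes higher in *cs*-WA reach larger changes than the 1792 lower ones, and the straight diagonal rows at the upper left are genes with 0, 1 or a few counts in *cs*-M.

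Most *Aux/IAA* genes rose. Of the 28 tested, which encode the repressors of auxin signalling, 22 rose and none fell, with a median log2 change of 2.14. *IAA29* was at 105, 121 and 84.97 CPM in *cs*-WA and at 0.782, 0.411 and 0.0874 CPM in *cs*-M. Its log2 fold change was 7.75 ± 0.31 (fitted value ± SE, adjusted p = 1.93e-17). The SE of a fold change is a standard error worked back from the fitted value and the F value of its test. It is rough for genes near 0 counts in a group. *IAA19*, which takes part in differential growth of the hypocotyl, was at 55.4, 47.9 and 38.7 CPM in *cs*-WA, against 0.142, 1.07 and 0.262 CPM in *cs*-M (6.52 ± 0.39, adjusted p = 1.81e-13). In both genes every *cs*-WA library was far above every *cs*-M library. Their log2 fold changes were 8.53 without *cs*-M replicate 1 for *IAA29* and 7.79 without *cs*-M replicate 2 for *IAA19*. *IAA5* was at 18.3, 10.2 and 11.7 CPM in *cs*-WA and had 2 counts over the 3 *cs*-M libraries, a ratio of 249 with a 95% exact interval of 68.7 to 2063. Intervals and bounds of this kind cover counting error only. *IAA30*, which lacks the part of the protein needed for rapid degradation, was at 81.3, 71.3 and 59.8 CPM in *cs*-WA and 3.696, 2.22 and 2.099 CPM in *cs*-M (4.63 ± 0.28). The 6 that were not called had log2 fold changes of -0.20 (*IAA7*), -0.19 (*IAA17*), -0.04 (*IAA18*), -0.03 (*IAA28*), 0.45 (*IAA8*) and 4.06 (*IAA6*), the last with at most a few counts a library. Summed over the list, *Aux/IAA* transcripts were at 3413 to 3540.0 CPM in *cs*-WA and at 1438 to 1476 CPM in *cs*-M.

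The promoters of auxin-responsive genes often hold the letters TGTCTC or TGTCGG, at which ARFs can bind. Shown here are the 250 bases before the annotated start of 4 genes that rose, with each TGTCTC or TGTCGG on either strand in capitals (GAGACA and CCGACA are the same letters read on the other strand). The 4 were chosen after their motif counts were known, as examples with at least 1 match, and the sequences are from RefSeq on the assembly TAIR10.1.
*IAA19* (chr3:5263751-5264000, plus strand): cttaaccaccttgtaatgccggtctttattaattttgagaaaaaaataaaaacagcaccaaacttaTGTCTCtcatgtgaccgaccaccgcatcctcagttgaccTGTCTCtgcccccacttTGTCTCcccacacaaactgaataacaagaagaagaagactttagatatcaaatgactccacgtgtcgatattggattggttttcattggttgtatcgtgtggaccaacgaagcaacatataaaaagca
*IAA5* (chr1:5366498-5366747, minus strand): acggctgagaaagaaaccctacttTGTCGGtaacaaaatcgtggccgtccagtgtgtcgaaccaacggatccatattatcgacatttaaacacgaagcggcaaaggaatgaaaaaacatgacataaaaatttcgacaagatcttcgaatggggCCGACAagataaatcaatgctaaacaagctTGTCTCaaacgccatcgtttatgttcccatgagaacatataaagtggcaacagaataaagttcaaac
*GH3.3* (chr2:9866563-9866812, minus strand): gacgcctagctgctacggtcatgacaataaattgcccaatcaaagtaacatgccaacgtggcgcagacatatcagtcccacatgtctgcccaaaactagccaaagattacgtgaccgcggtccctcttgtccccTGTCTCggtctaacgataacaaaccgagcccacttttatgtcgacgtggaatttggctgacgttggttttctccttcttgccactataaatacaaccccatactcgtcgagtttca
*PLT1* (chr3:7300194-7300443, plus strand): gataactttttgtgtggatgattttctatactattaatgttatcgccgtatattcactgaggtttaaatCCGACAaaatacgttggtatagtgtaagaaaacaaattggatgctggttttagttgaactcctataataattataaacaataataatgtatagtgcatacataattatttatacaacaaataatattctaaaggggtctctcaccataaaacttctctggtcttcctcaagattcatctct
*IAA19* holds 3 TGTCTC and 1 CACGTG in this window, *IAA5* holds 1 TGTCTC and 2 TGTCGG, *GH3.3* holds 1 TGTCTC and *PLT1* holds 1 TGTCGG. Across promoters of this length, TGTCTC was found in 11.7% of the 2065 for genes that rose, 11.4% of the 1791 for genes that fell and 10.7% of the 20973 for all genes tested. TGTCGG was found in 4.65%, 4.41% and 4.59% of the same sets. The RY core CATGCA, a letter motif of seed gene promoters, was in 11.4%, 10.9% and 8.02% of them. The G-box CACGTG was in 5.52%, 8.32% and 7.47%, and the GCC box GCCGCC in 1.60%, 1.34% and 1.97%. All 5 motifs were searched on both strands, and a match is a match of letters only.

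Auxin conjugation genes rose by more than the repressors. Of 8 tested members of the auxin inactivation list, 7 rose and none fell, with a median log2 change of 5.18. *GH3.3* was the most abundant of them. It was at 3074.9, 2430.2 and 2773 CPM in *cs*-WA and at 20.8, 24.4 and 22.2 CPM in *cs*-M (6.86 ± 0.36, adjusted p = 1.52e-14). *GH3.2* was at 1332, 1249.8 and 1300.2 CPM in *cs*-WA, against 6.54, 7.07 and 5.07 CPM in *cs*-M (7.61 ± 0.26, adjusted p = 1.15e-18), and *GH3.1* at 59.3, 60.9 and 56.5 CPM in *cs*-WA, against 0.355, 0.657 and 0.0874 CPM in *cs*-M (7.20 ± 0.34). The *GH3.1* value was 7.86 without *cs*-M replicate 2. The groups were apart in all 3 genes, and the *cs*-WA libraries lay close to each other. *GH3.4* was at 29.1, 22.1 and 24.2 CPM in *cs*-WA and had 3 counts over the *cs*-M libraries, all in replicate 1 (ratio 314, interval 107 to 1524). The 8 genes together were at 4505 to 5339 CPM in *cs*-WA and at 103 to 153 CPM in *cs*-M.

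Genes of auxin synthesis went both ways. Of 9 tested, 3 rose (33.3%) and 5 fell (55.6%), with a median log2 change of -0.96. Of all genes tested, 9.81% rose and 8.49% fell. The *YUC* genes encode flavin monooxygenases for the last step of IAA synthesis. *YUC1* and *YUC4*, which serve the shoot apex and the embryo, fell. *YUC4* was at 6.66, 8.17 and 7.21 CPM in *cs*-WA and at 16.8, 13.7 and 16.9 CPM in *cs*-M (-1.18 ± 0.24, adjusted p = 0.000352), and *YUC1* at 0.296, 0.894 and 0.5204 CPM in *cs*-WA, against 4.05, 2.96 and 5.42 CPM in *cs*-M (-2.90 ± 0.38, adjusted p = 1.66e-06). The groups did not overlap in either gene. *YUC2* was also called lower (-4.68, adjusted p = 0.0497). That call was lost without any 1 *cs*-WA replicate and without *cs*-M replicate 1 or 3 (adjusted p = 0.0913 to 0.183). It was also lost without a filter on low counts (adjusted p = 0.0564) and against *cs*-ctrl (-3.69, adjusted p = 0.106). *YUC3* and *YUC8* rose. *YUC3* was at 2.15, 7.73 and 2.16 CPM in *cs*-WA and at 0 counts in each *cs*-M library, at least 16.7-fold higher against 3 counts per library, and *cs*-WA replicate 2 held the highest value. *YUC8* was at 1.85, 2.49 and 1.34 CPM in *cs*-WA and at 0.142, 0.164 and 0.175 CPM in *cs*-M (3.42 ± 0.63, adjusted p = 0.000108). *YUC9* was lower, at 0.7401, 1.15 and 0.743 CPM in *cs*-WA and 10.4, 2.46 and 2.71 CPM in *cs*-M (-2.62 ± 0.74, adjusted p = 0.00758), but *cs*-M replicate 1 was far above the other *cs*-M libraries, and without it the log2 fold change was -1.64 (adjusted p = 0.139).

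Auxin transport genes also rose: 10 of 11 tested were higher and 1 was lower, with a median log2 change of 1.27. *PIN3*, an auxin efflux carrier for tropic growth, was at 88.96, 103 and 93.2 CPM in *cs*-WA and at 18.8, 18.2 and 10.8 CPM in *cs*-M (2.49 ± 0.18, adjusted p = 1.3e-11). The influx carrier *LAX2* was at 196, 245 and 253 CPM in *cs*-WA, against 45.6, 40.996 and 38.6 CPM in *cs*-M (2.39 ± 0.15). No *cs*-WA library overlapped a *cs*-M library in these genes. The exception was *PIN5*, a carrier of the endoplasmic reticulum, at 0.3701, 0.255 and 0.372 CPM in *cs*-WA and 1.56, 1.97 and 1.66 CPM in *cs*-M (-2.44 ± 0.50, adjusted p = 0.000372). Of 15 tested ARF genes, 4 rose (26.7%) and 2 fell (13.3%), with a median of 0.09. Of all genes tested, 9.81% rose and 8.49% fell. *MP* (*ARF5*), the activator that directs vascular and embryonic patterning, was at 281, 321 and 308 CPM in *cs*-WA and at 141, 129 and 132 CPM in *cs*-M (1.099 ± 0.11, adjusted p = 3.9e-09). *ARF8* was at 43.6, 55.04 and 47.9 CPM in *cs*-WA and at 99.4, 76.5 and 69.5 CPM in *cs*-M (-0.82 ± 0.16).

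**Figure D2:**
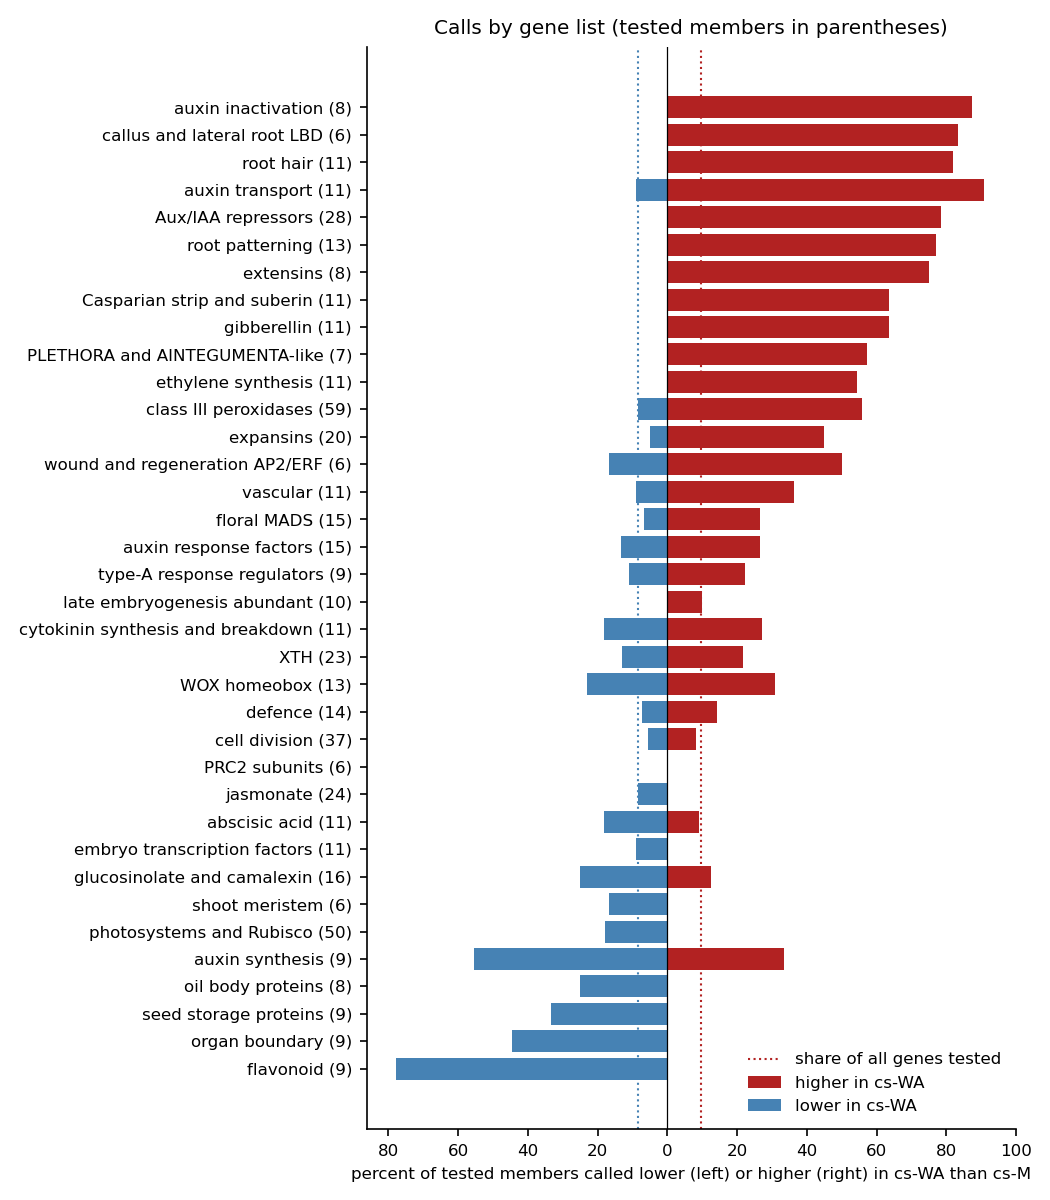
Share of the tested members of each gene list (number tested in parentheses) called higher (right, red) or lower (left, blue) in *cs*-WA than in *cs*-M, with dotted lines at 9.81% and 8.49%, the shares of all genes tested. *Aux/IAA*, auxin inactivation, auxin transport, root hair, root patterning and extensin lists lie far to the right. Flavonoid, organ boundary and seed storage lists lie to the left. Auxin synthesis genes were 33.3% higher and 55.6% lower, and auxin response factors 26.7% higher and 13.3% lower.

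Transcription factors of callus and lateral root formation rose with the auxin genes. LBD proteins act downstream of *ARF7* and *ARF19* in the founding of lateral roots and of callus, and 5 of 6 tested *LBD* genes rose and none fell (median log2 fold change 4.37, or 2.77 with the 2 genes at 0 counts in *cs*-M set to their bounds). *LBD18* was at 19.5, 18.3 and 16.1 CPM in *cs*-WA and at 0.6396, 0.246 and 0.437 CPM in *cs*-M (5.22 ± 0.28, adjusted p = 1.52e-14). *LBD16* was at 27.4, 20.05 and 20.4 CPM in *cs*-WA and at 1.78, 1.89 and 1.92 CPM in *cs*-M (3.52 ± 0.24, adjusted p = 4.78e-12). The groups were apart in both. *LBD29* and *LBD17* were at 0 counts in each *cs*-M library and stayed low in *cs*-WA, at 0.296, 0.575 and 0.223 CPM and 0.444, 0.702 and 0.372 CPM, at least 1.51-fold and at least 2.103-fold higher.

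The PLETHORA genes encode AP2-domain factors that set up and maintain the root meristem. Of 7 tested members of the PLETHORA and AINTEGUMENTA-like list, 4 rose and none fell (median 0.70). *PLT1* was at 14.9, 22.03 and 15.6 CPM in *cs*-WA and at 0 counts in each *cs*-M library, at least 72.7-fold higher. *PLT2* was at 8.22, 8.56 and 9.29 CPM in *cs*-WA and had 2 counts over the *cs*-M libraries, both in replicate 2 (ratio 164, interval 44.95 to 1355). *BBM*, which can trigger somatic embryos when overexpressed, was already present in mock tissue, at 24.4, 34.5 and 30.7 CPM in *cs*-WA and 10.9, 15.7 and 17.6 CPM in *cs*-M (0.94 ± 0.28, adjusted p = 0.0121), and without *cs*-M replicate 1 its log2 fold change was 0.75 (adjusted p = 0.0868). *ANT*, *AIL5* and *PLT7* were not called.

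WOX homeobox genes mark stem cell niches and founder cells. Of 13 tested, 4 rose (30.8%) and 3 fell (23.1%), with a median of -0.02, against 9.81% and 8.49% of all genes tested. *WOX11*, which acts in the founding of adventitious roots from cut leaves, was at 70.2, 110.1 and 83.04 CPM in *cs*-WA and at 1.07, 1.23 and 1.14 CPM in *cs*-M (6.17 ± 0.27, adjusted p = 2.57e-16). *WOX5*, the gene of the root quiescent centre, was at 24.1, 24.9 and 21.3 CPM in *cs*-WA and at 3.696, 3.37 and 2.89 CPM in *cs*-M (2.73 ± 0.20, adjusted p = 1.16e-11). *WOX7* was at 1.04, 1.28 and 1.41 CPM in *cs*-WA, with 1 count over the *cs*-M libraries. *WOX12*, the close relative of *WOX11*, went the other way, at 3.11, 7.66 and 5.87 CPM in *cs*-WA and 10.7, 13.97 and 20.5 CPM in *cs*-M (-1.52 ± 0.36, adjusted p = 0.00168). *WOX2* and *WOX9*, which pattern the early embryo, fell by 1.03 ± 0.17 and by 0.99 ± 0.14 on the log2 scale. *WUS*, the organizer gene of the shoot meristem, was at 1.48, 1.98 and 1.78 CPM in *cs*-WA and at 1.35, 1.07 and 1.22 CPM in *cs*-M and was not called (0.44 ± 0.41, adjusted p = 0.445), although every *cs*-WA library was above every *cs*-M library.

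Among factors linked to wounding and regeneration, *ESR1* and *ESR2* (also DORNRÖSCHEN and DORNRÖSCHEN-LIKE, regulators of shoot regeneration and cotyledon founding) rose. *ESR2* was at 9.55, 11.7 and 11.2 CPM in *cs*-WA and at 0.853, 0.822 and 0.437 CPM in *cs*-M (3.83 ± 0.43, adjusted p = 5.39e-08), and *ESR1* at 4.51, 7.41 and 5.13 CPM in *cs*-WA, against 1.14, 0.739 and 0.787 CPM in *cs*-M (2.58 ± 0.41, adjusted p = 1.54e-05). The groups did not overlap in either. *ERF115*, a factor of stem cell replacement after damage, was at 0.814, 0.894 and 0.892 CPM in *cs*-WA with 2 counts over the *cs*-M libraries (ratio 16.4, interval 4.22 to 140.1). *WIND1*, a wound-induced promoter of callus, overlapped between the groups at 118, 129.7 and 166 CPM in *cs*-WA and 142, 169 and 139.9 CPM in *cs*-M (-0.21 ± 0.20, adjusted p = 0.462). *ERF113* (RAP2.6L) was at 32.3, 32.8 and 35.4 CPM in *cs*-WA and 49.4, 41.8 and 53.4 CPM in *cs*-M (-0.61 ± 0.17, adjusted p = 0.00868). Its fold change missed 0.6 with the replicate number as a block (-0.57, adjusted p = 0.0177) and without *cs*-WA replicate 1 (-0.59), *cs*-WA replicate 2 (-0.52) or *cs*-M replicate 3 (-0.52). In all, 3 of the 6 tested members of this list rose (50%) and 1 fell (16.7%), against 9.81% and 8.49% of all genes tested.

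Root hair genes rose in a tissue from which the roots had been cut away. Of 11 tested members of the root hair list, 9 rose and none fell (median log2 fold change 7.85, or 3.78 with the genes at 0 counts in *cs*-M set to their bounds). *RHD6*, the factor that starts root hair growth, was at 21.5, 20.05 and 16.5 CPM in *cs*-WA and at 0.142, 0.164 and 0.262 CPM in *cs*-M (6.56 ± 0.42, adjusted p = 8.76e-13). *COBL9*, needed for the tip growth of hairs, was at 3.405, 3.64 and 2.899 CPM in *cs*-WA and at 0 counts in each *cs*-M library, at least 13.8-fold higher. Expansins of hair cells were likewise near 0 in mock tissue. *EXPA18* was at 4.59, 7.28 and 3.64 CPM in *cs*-WA and at 0 counts in each *cs*-M library (at least 21.5-fold), and *EXPA7* at 6.07, 12.4 and 7.29 CPM in *cs*-WA with 1 count over the *cs*-M libraries (ratio 331, interval 58.98 to 13093). *LRX1*, a cell wall protein of hairs, was at 6.59, 9.58 and 8.25 CPM in *cs*-WA and at 0 counts in each *cs*-M library, at least 33.8-fold higher. *RSL4*, which sets hair length, was too low to be tested, at 0.444, 0.8301 and 0.5204 CPM in *cs*-WA and 0 counts in each *cs*-M library. *LRL1* and *LRL2* were not called, with log2 fold changes of 0.05 and 0.27.

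Genes of root patterning rose as well: 10 of 13 tested were higher and none lower (median 5.74, or 3.36 with bounds). The root cap factors *BRN1* and *FEZ* were at 0 counts in each *cs*-M library. *BRN1* was at 3.63, 7.53 and 4.16 CPM and *FEZ* at 3.03, 5.24 and 4.53 CPM in *cs*-WA, at least 21.2-fold and at least 17.7-fold higher. *RGF2*, which encodes a peptide that maintains the root meristem, was at 26.1, 54.3 and 37.9 CPM in *cs*-WA and at 0.0711, 0.0822 and 0.175 CPM in *cs*-M (8.34 ± 0.54, adjusted p = 3.78e-12). *SHR* rose by a log2 fold change of 1.34. Its partner *SCR*, a gene of the endodermis and quiescent centre that the shoot also expresses, was at 56.5, 57.7 and 51.4 CPM in *cs*-WA and 57.3, 57.02 and 59.8 CPM in *cs*-M and was not called (-0.15 ± 0.11, adjusted p = 0.298).

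Suberin is the waxy polymer of endodermis, cork and healing wounds, and the Casparian strip is the lignin seal of the endodermis. Of 11 tested genes on this list, 7 rose and none fell (median 4.06). *FAR5*, a reductase that makes fatty alcohols of suberin, was at 10.5, 6.704 and 11.4 CPM in *cs*-WA and at 0.0711, 0 and 0.262 CPM in *cs*-M (6.30 ± 0.45, adjusted p = 7.87e-12; 7.60 without *cs*-M replicate 3). *CYP86A1*, the hydroxylase of root suberin acids, was at 4.29, 8.56 and 11.9 CPM in *cs*-WA and at 0.0711, 0.164 and 0.0874 CPM in *cs*-M (6.09 ± 0.45, adjusted p = 1.83e-11). *FAR4* was at 6.59, 11.1 and 11.3 CPM in *cs*-WA with 1 count over the *cs*-M libraries (ratio 367, interval 65.5 to 14524). *CASP1*, a protein of the Casparian strip, had 0 counts in all 6 libraries.

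Among 8 root markers (*WOX5*, *SCR*, *SHR*, *PLT1*, *CASP1*, *COBL9*, *EXPA7* and *SMB*), 6 were higher in *cs*-WA, *SCR* was not called and *CASP1* was at 0. Their summed level was 168 to 199 CPM in *cs*-WA and 79.7 to 85.5 CPM in *cs*-M. The root gene groups above moved with these markers, several of which are on those lists, and the part of root cells in the result was not tested. In bulk tissue more cells of a type and more RNA per cell cannot be told apart. Shoot apex markers were at 245 to 279 CPM in *cs*-WA and 270.4 to 323 CPM in *cs*-M, with none of 4 tested called. Phloem markers *APL* and *SUC2* were lower, summing to 18.6 to 25.3 CPM in *cs*-WA and 49.1 to 53.9 CPM in *cs*-M. The *APL* change missed 0.6 without *cs*-WA replicate 2 (-0.54) or *cs*-M replicate 3 (-0.496), and *APL* was not called on the 6 libraries alone (-0.63, adjusted p = 0.0562) or against *cs*-ctrl (-0.19, adjusted p = 0.295). Of 11 tested vascular genes, 4 rose (36.4%) and 1 fell (9.09%), against 9.81% and 8.49% of all genes tested. *T5L1*, a partner of the vascular division factor LHW, was at 97.4, 102 and 106 CPM in *cs*-WA and 18.9, 20.6 and 20.6 CPM in *cs*-M (2.26 ± 0.16), and *HB8*, a marker of the procambium, at 104, 116 and 109 CPM in *cs*-WA, against 39.9, 39.8 and 32.004 CPM in *cs*-M (1.47 ± 0.14).

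**Figure D3:**
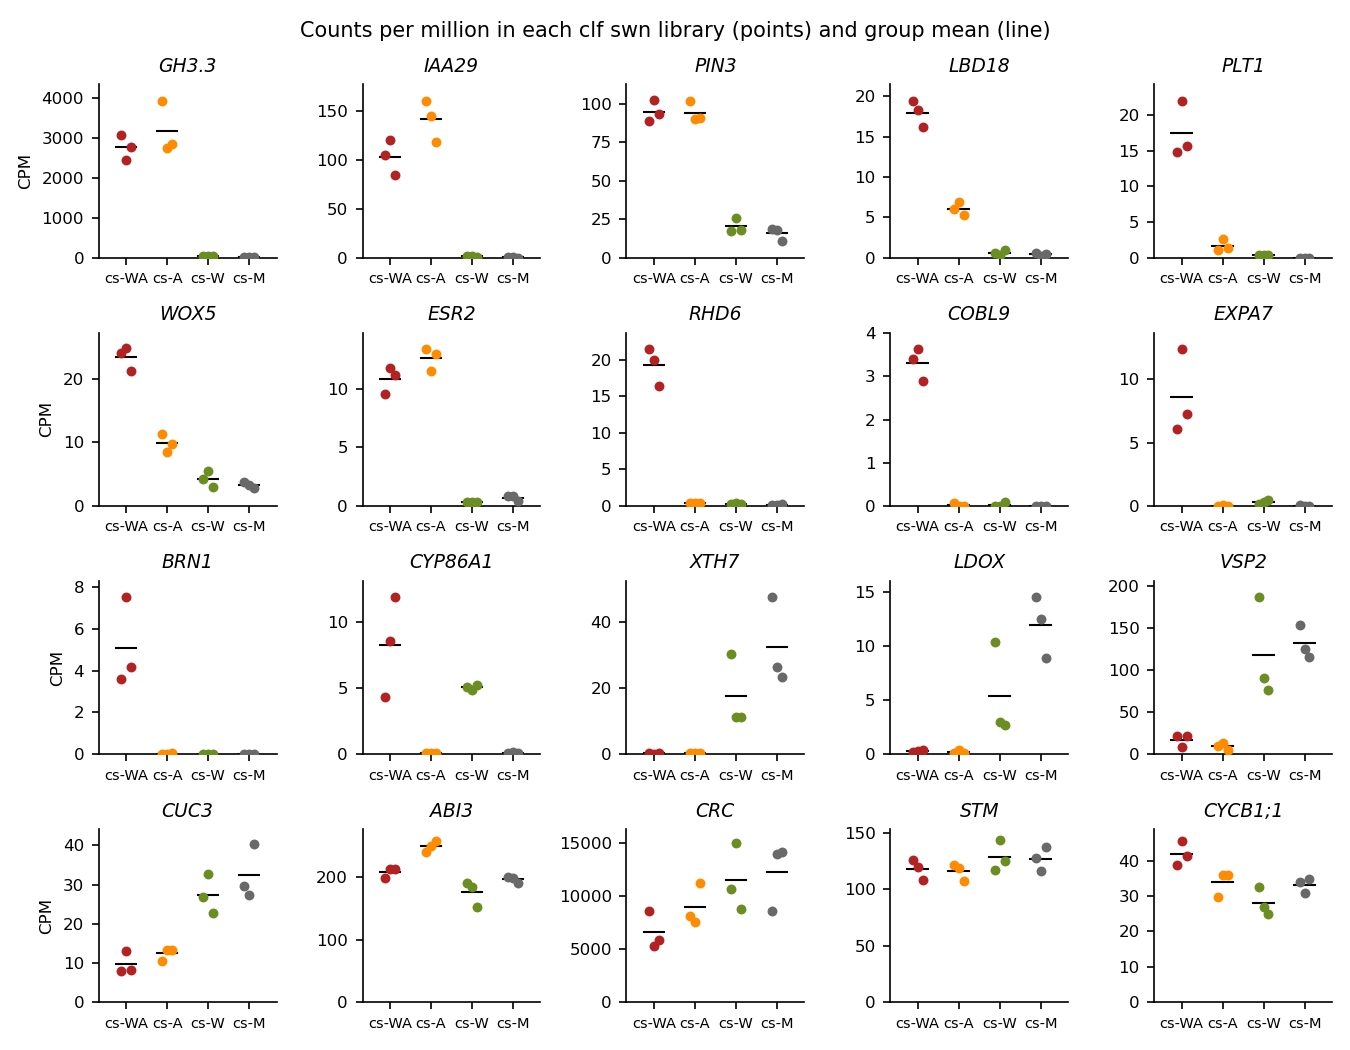
CPM (vertical axes, each starting at 0) of 20 genes in each library (points) of *cs*-WA, *cs*-A, *cs*-W and *cs*-M, with a line at the group mean. *GH3.3*, *IAA29*, *PIN3* and *ESR2* are high in both groups with 2,4-D, whereas *RHD6*, *COBL9*, *EXPA7* and *BRN1* are at 2.90 to 21.5 CPM in the *cs*-WA libraries and close to 0 in the other groups.

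Extensin genes were among those with the largest fitted fold changes of the comparison. Extensins are rod-like glycoproteins that are cross-linked into the wall, and 6 of 8 tested rose and none fell (median 9.94, or 5.57 with bounds). *AT1G23720*, an extensin-like gene, was at 105, 126 and 107 CPM in *cs*-WA and at 0 counts in each *cs*-M library, at least 468-fold higher. *AT3G54580* was at 87.9, 122 and 98.1 CPM in *cs*-WA and at 0 counts in each *cs*-M library (at least 427-fold), and *AT3G28550* at 109.7, 151 and 123 CPM in *cs*-WA with 1 count over the *cs*-M libraries. *HRGP1*, a hydroxyproline-rich glycoprotein gene, was at 57.5, 84.3 and 66.8 CPM in *cs*-WA and at 0 counts in *cs*-M (at least 289-fold), and *EXT6* at 19.98, 28.5 and 18.9 CPM in *cs*-WA and at 0 counts in *cs*-M (at least 93.4-fold). In each of these genes *cs*-WA replicate 2 was the highest library. Extensins resemble each other, and 3.5% of the 50-base exon words of *AT3G54580* and 5.0% of those of *EXT6* were also found elsewhere in the genome. *EXT3* and *EXT4* were not called, with log2 fold changes of 0.26 and 1.06.

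Other large responses were spread over wall and signalling genes. *AT2G43860*, a pectin lyase-like gene, was at 20.6, 26.5 and 26.02 CPM in *cs*-WA and at 0 counts in each *cs*-M library (at least 101-fold). *MAKR4*, a membrane-associated kinase regulator known from lateral root founding, was at 22.4, 21.3 and 19.6 CPM in *cs*-WA and likewise at 0 in *cs*-M (at least 87.8-fold). *RTFL10*, which encodes a small peptide of the ROTUNDIFOLIA family, was at 69.3, 85.4 and 68.8 CPM in *cs*-WA with 3 counts over the *cs*-M libraries. Other genes cover 48% of its exon bases, and the strand setting of the counting is not given in the sources used here, so that its reads cannot be told from theirs.

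Expansins loosen the wall, and 9 of 20 tested rose and 1 fell. Of 23 tested *XTH* genes, which cut and rejoin xyloglucan, 5 rose and 3 fell. *XTH14*, known from roots, was at 8.73, 13.8 and 11.7 CPM in *cs*-WA and at 0 counts in each *cs*-M library (at least 47.4-fold). *XTH7* was at the other end, at 0.296, 0.192 and 0.372 CPM in *cs*-WA and at 47.4, 26.3 and 23.3 CPM in *cs*-M (-6.88 ± 0.57, adjusted p = 1.52e-10). *XTH6* was at 2.89, 1.85 and 2.53 CPM in *cs*-WA, against 38.7, 26.7 and 24.05 CPM in *cs*-M (-3.71 ± 0.37). The groups were apart in all 3 genes, so that members of 1 family moved in opposite directions. Class III peroxidases cross-link or loosen the wall with hydrogen peroxide, and 33 of 59 tested rose (55.9%) and 5 fell (8.47%, median 1.31). *AT5G17820* was at 52.5, 76.05 and 58.8 CPM in *cs*-WA and at 0.213, 0 and 0.262 CPM in *cs*-M (8.46 ± 0.59, adjusted p = 4.78e-12). *AT2G18980* was at 52.5, 39.1 and 43.3 CPM in *cs*-WA with 3 counts over the *cs*-M libraries, all in replicate 3 (ratio 561, interval 192 to 2724). *AT1G49570* was lower, at 1.18, 0.447 and 1.12 CPM in *cs*-WA and 10.7, 3.61 and 5.25 CPM in *cs*-M (-2.91 ± 0.61, adjusted p = 0.000474). The lower call of *AT5G58400* was lost with the replicate block (-0.89, adjusted p = 0.0597) and without any 1 of 4 libraries (-0.53 to -0.99), and its groups overlapped.

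Read as a switch, 227 genes had at least 1 CPM in each *cs*-WA library and at most 3 counts in each *cs*-M library. All 227 were among the genes called higher, which follows largely from their choice by the same libraries. With 0 counts in each *cs*-M library there were 76, and with a minimum of 0.5 or 2 CPM in *cs*-WA there were 392 or 135. Few of the 227 reached 1 CPM in each library of a single treatment, 18 in *cs*-A and 15 in *cs*-W, and 62 had at most 3 counts in every *cs*-A and *cs*-W library. In wild type, 144 of them were at 1 CPM or more in each WT-WA library and 107 had at most 3 counts in each WT-M library. Because the 227 were picked for their counts in *cs*-WA and *cs*-M, these numbers describe that set only. The shares over all genes were not worked out. Of the 227, 48 were on a gene list, with the extensin genes *AT1G23720* and *AT3G54580* at the highest mean CPM among them. The opposite pattern, at most 3 counts in each *cs*-WA library and at least 1 CPM in each *cs*-M library, was met by 2 genes. They were *AT5MAT*, an anthocyanin malonyltransferase, at 0.148, 0.128 and 0.149 CPM in *cs*-WA and 4.97, 4.601 and 3.24 CPM in *cs*-M (-4.92 ± 0.61), and the carboxylesterase *CXE17*, at 0.07401, 0 and 0.223 CPM in *cs*-WA and 2.27, 1.56 and 1.05 CPM in *cs*-M (-4.08 ± 0.60; -5.34 without *cs*-WA replicate 3 and -3.41 without *cs*-WA replicate 2).

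Other hormone pathways moved as well. Of 11 tested genes of ethylene synthesis, 6 rose and none fell (median 2.76, or 1.203 with bounds). *ACS8*, a synthase of the ethylene precursor ACC, was at 13.8, 9.39 and 10.04 CPM in *cs*-WA and at 0.355, 0.575 and 0.874 CPM in *cs*-M (4.14 ± 0.40, adjusted p = 2.82e-09). Of 11 tested gibberellin genes, 7 rose and none fell. They included both *GA20OX2*, a synthesis enzyme, at 1.92, 0.958 and 1.56 CPM in *cs*-WA and 0.497, 0 and 0.175 CPM in *cs*-M (2.52 ± 0.69; 3.89 without *cs*-M replicate 1), and *GA2OX8*, a breakdown enzyme, at 0.814, 1.85 and 1.04 CPM in *cs*-WA with 3 counts over the *cs*-M libraries (ratio 15.9, interval 5.16 to 79.6). In the cytokinin synthesis and breakdown list, 3 of 11 tested rose (27.3%) and 2 fell (18.2%), against 9.81% and 8.49% of all genes tested. The cytokinin oxidase *CKX1* was at 80.2, 78.9 and 68.2 CPM in *cs*-WA and 20.1, 15.8 and 24.6 CPM in *cs*-M (1.83 ± 0.27), with 35% of its exon bases under other genes. The synthesis gene *IPT3* was lower, at 0.444, 0.511 and 1.34 CPM in *cs*-WA and 3.62, 2.05 and 2.54 CPM in *cs*-M (-1.93 ± 0.50; -2.58 without *cs*-WA replicate 3).

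Type-A response regulators are quick targets of cytokinin and damp its signal. Of 9 tested, 2 rose (22.2%) and 1 fell (11.1%), against 9.81% and 8.49% of all genes tested. *ARR5* was at 3.11, 1.596 and 2.38 CPM in *cs*-WA and at 0.995, 3.04 and 7.87 CPM in *cs*-M and was not called (-0.81 ± 0.64, adjusted p = 0.362). *ARR15* was called lower, at 1.41, 1.405 and 1.04 CPM in *cs*-WA and 1.63, 1.97 and 8.57 CPM in *cs*-M (-1.72 ± 0.65, adjusted p = 0.0459). In both genes *cs*-M replicate 3 was the highest library, and without it the log2 fold changes were 0.16 for *ARR5* and -0.56 (adjusted p = 0.587) for *ARR15*. The *ARR15* call was also lost with the replicate block (-1.62, adjusted p = 0.0691) and without any 1 of the *cs*-WA replicates (adjusted p = 0.0897, 0.106 and 0.121 without replicates 1, 2 and 3).

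Abscisic acid genes gave 1 higher (9.09%) and 2 lower (18.2%) of 11 tested, against 9.81% and 8.49% of all genes tested. All 3 are *CYP707A* genes, whose enzymes break the hormone down. *CYP707A1* was at 62.98, 40.8 and 44.5 CPM in *cs*-WA and 17.9, 23.7 and 17.8 CPM in *cs*-M (1.24 ± 0.24, adjusted p = 0.000218). *CYP707A2*, the form of germinating seeds, was at 8.51, 7.79 and 5.13 CPM in *cs*-WA and 49.2, 31.4 and 13.7 CPM in *cs*-M (-2.21 ± 0.53, adjusted p = 0.00203). *CYP707A4* was at 0 counts in each *cs*-WA library and at 2.13, 0.739 and 1.49 CPM in *cs*-M, at least 6.85-fold lower against 3 counts per library.

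Jasmonate is the hormone of the first hours after wounding. Of 24 tested genes of its pathway, none rose and 2 fell at 55 h (median 0.14). The share that fell, 8.33%, was close to the 8.49% of all genes tested, of which 9.81% rose. *VSP2*, a storage protein and a usual reporter of the pathway, was at 21.4, 8.301 and 21.7 CPM in *cs*-WA and at 155, 126 and 116 CPM in *cs*-M (-3.03 ± 0.60, adjusted p = 0.000274), with no overlap. *LOX2*, a lipoxygenase of jasmonate synthesis, was at 38.6, 3.06 and 20.3 CPM in *cs*-WA and 118, 56.4 and 63.7 CPM in *cs*-M (-2.02 ± 0.76, adjusted p = 0.0438), a call lost without any 1 of 5 libraries (*cs*-WA replicate 2 or 3 and each *cs*-M replicate), with log2 fold changes of -1.44 to -2.20. Without *cs*-WA replicate 1 it was -2.86. The *JAZ* repressor genes, 12 of the 24, were not called, with log2 fold changes of -0.59 to 2.12.

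Genes of anthocyanin and flavonoid synthesis fell. Of 9 tested, 7 were lower and none higher (median -1.297). *LDOX* and *DFR*, the late enzymes of anthocyanin synthesis, were close to 0 in *cs*-WA. *LDOX* was at 0.222, 0.255 and 0.372 CPM in *cs*-WA and at 14.5, 12.5 and 8.83 CPM in *cs*-M (-5.45 ± 0.80, adjusted p = 5.43e-06), and *DFR* at 0.962, 0.319 and 0.372 CPM in *cs*-WA, against 19.1, 16.8 and 16.9 CPM in *cs*-M (-5.08 ± 0.67, adjusted p = 9.8e-07; -5.73 without *cs*-WA replicate 1). *PAP2* (*MYB90*), a MYB activator of the pathway, was at 0.222, 0 and 0.149 CPM in *cs*-WA and 3.48, 2.22 and 0.962 CPM in *cs*-M (-4.22 ± 0.93; -4.93 without *cs*-WA replicate 1 and -3.55 without *cs*-WA replicate 2). All *cs*-WA libraries were below all *cs*-M libraries in the 3 genes. The early enzyme *CHS* fell by 1.18 on the log2 scale.

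Of 16 tested genes of defence metabolites, 2 rose (12.5%) and 4 fell (25%), against 9.81% and 8.49% of all genes tested. The 4 lower ones belong to the synthesis of aliphatic glucosinolates from methionine or its regulation. *MAM1* was at 7.62, 2.75 and 4.68 CPM in *cs*-WA and 83.01, 37.1 and 38.04 CPM in *cs*-M (-3.47 ± 0.72, adjusted p = 0.000441), *CYP83A1* at 6.29, 2.81 and 7.21 CPM in *cs*-WA, against 62.6, 22.4 and 28.4 CPM in *cs*-M (-2.88 ± 0.61), and their activator *MYB28* at 4.37, 2.49 and 3.79 CPM in *cs*-WA, against 22.2, 15.4 and 20.5 CPM in *cs*-M (-2.54 ± 0.48). Against *cs*-ctrl, *CYP83A1* was not called (-1.27, adjusted p = 0.0648). *MBP1*, which binds myrosinase, the enzyme that breaks glucosinolates, was at 3.92, 1.02 and 2.01 CPM in *cs*-WA and 45.3, 28.3 and 29.03 CPM in *cs*-M (-3.98 ± 0.51, adjusted p = 7.19e-07; -4.60 without *cs*-WA replicate 1). *PAD3*, the last enzyme of camalexin synthesis, rose to 20.8, 11.5 and 9.81 CPM in *cs*-WA, against 1.14, 0.822 and 0.962 CPM in *cs*-M (3.75 ± 0.79, adjusted p = 0.000533). *CYP71A13*, also of camalexin synthesis, was at 13.1, 0.447 and 1.93 CPM in *cs*-WA and 0.142, 0.0822 and 0.3498 CPM in *cs*-M (4.65 ± 1.302), but without *cs*-WA replicate 1 it was 2.50 (adjusted p = 0.208). *CYP79B2*, at the branch of indole metabolism, was at 98.4, 25.3 and 45.6 CPM in *cs*-WA and 55.5, 51.3 and 22.997 CPM in *cs*-M (0.31 ± 0.48, adjusted p = 0.676), and was -0.38 without the same library.

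The defensin *PDF1.1* showed the same library at the top, with 289, 57.9 and 50.1 CPM in *cs*-WA and 11.7, 10.02 and 8.83 CPM in *cs*-M (3.62 ± 0.61, adjusted p = 3.34e-05), and stayed called without it at 2.32. *PDF1.4* lost its call without it (1.26, adjusted p = 0.26). *PR1*, the marker of salicylic acid defence, was at 0.148, 0.255 and 0 CPM in *cs*-WA and 0, 2.05 and 0 CPM in *cs*-M and was not called (-2.26 ± 2.03, adjusted p = 0.432), and its 25 *cs*-M counts were in replicate 2. In the defence list, 2 of 14 tested rose (14.3%) and 1 fell (7.14%), against 9.81% and 8.49% of all genes tested.

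Other genes at the lower end had varied roles. *PYD4*, an aminotransferase of pyrimidine breakdown, was at 0.962, 1.66 and 1.86 CPM in *cs*-WA and 46.6, 62.4 and 65.1 CPM in *cs*-M (-5.35 ± 0.55, adjusted p = 1.13e-08). *AT4G23680*, annotated as a polyketide cyclase-like lipid transport protein, was at 3.77, 1.596 and 2.38 CPM in *cs*-WA and 68.7, 67.1 and 66.1 CPM in *cs*-M (-4.79 ± 0.39). *AT3G21670*, a transporter of the major facilitator superfamily, was at 0.222, 0.128 and 0.446 CPM in *cs*-WA and 6.68, 6.901 and 4.98 CPM in *cs*-M (-4.61 ± 0.73). Each *cs*-WA library was far below each *cs*-M library in these genes. *AT3G22142*, annotated as a lipid-transfer-like protein, was at 4.81, 4.15 and 4.46 CPM in *cs*-WA and 248, 198 and 153 CPM in *cs*-M (-5.56 ± 0.33), but other genes cover 99% of its exon bases, so that its reads cannot be told from theirs.

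At the shoot apex, genes of organ boundaries fell. Of 9 tested boundary genes, 4 were lower and none higher (median -0.55). *CUC3*, a NAC factor of boundaries and axillary meristems, was at 8.07, 13.03 and 8.25 CPM in *cs*-WA and at 29.6, 27.4 and 40.4 CPM in *cs*-M (-1.81 ± 0.31, adjusted p = 3.93e-05). *RAX1*, a MYB factor of axillary meristem formation, was at 3.405, 2.81 and 3.64 CPM in *cs*-WA and 11.1, 10.1 and 7.61 CPM in *cs*-M (-1.63 ± 0.21), and *LOB*, which marks the base of lateral organs, at 8.22, 9.77 and 9.59 CPM in *cs*-WA, against 26.2, 24.98 and 28.7 CPM in *cs*-M (-1.61 ± 0.18). The groups were apart in the 3 genes. *CUC1* and *CUC2* were not called (-0.18 and -0.55). Among 6 tested meristem genes only *CLV1*, a receptor kinase that restricts stem cells, was called, at 44.3, 40.99 and 44.5 CPM in *cs*-WA and 61.6, 55.6 and 76.2 CPM in *cs*-M (-0.66 ± 0.14), and it fell short of 0.6 without *cs*-WA replicate 2 (-0.55) or *cs*-M replicate 3 (-0.52). *STM*, which keeps meristem cells undifferentiated, overlapped at 126, 119.8 and 108 CPM in *cs*-WA and 128, 116 and 137 CPM in *cs*-M (-0.19 ± 0.12, adjusted p = 0.247).

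Genes of the embryo and seed programme were expressed in both groups. None of 11 tested embryo transcription factors was higher and 1 was lower (9.09%, against 8.49% of all genes tested), with a median of -0.05. *ABI3*, a B3 factor of seed maturation, was at 198, 212 and 211 CPM in *cs*-WA and 199.8, 198 and 189.7 CPM in *cs*-M (log2 fold change 0.00 ± 0.18, adjusted p = 1.00). *LEC1*, a NF-Y subunit that directs embryo development, was at 1.92, 2.68 and 2.38 CPM in *cs*-WA and 2.63, 2.55 and 1.92 CPM in *cs*-M (-0.11 ± 0.33, adjusted p = 0.845), and the B3 factor *LEC2* at 4.29, 5.56 and 4.76 CPM in *cs*-WA, against 4.05, 4.03 and 3.93 CPM in *cs*-M (0.20 ± 0.29, adjusted p = 0.653). The MADS factor *AGL15*, which favours somatic embryos, was at 43.5, 58.5 and 50.2 CPM in *cs*-WA and 26.7, 35.9 and 40.7 CPM in *cs*-M (0.48 ± 0.23, adjusted p = 0.119), apart but not called. *BZIP67*, a seed maturation factor, was lower at 11.9, 11.8 and 13.2 CPM in *cs*-WA and 17.9, 24.5 and 27.7 CPM in *cs*-M (-1.01 ± 0.26, adjusted p = 0.00341). Against *cs*-ctrl in place of *cs*-M, *BZIP67* was not called (-0.33, adjusted p = 0.251) and *AGL15* was (0.996, adjusted p = 0.000126).

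Seed storage genes were very abundant in both groups. Their 9 transcripts summed to 19037 to 29539 CPM in *cs*-WA and to 27260.2 to 44893 CPM in *cs*-M. Of the 9, 3 were lower (33.3%, against 8.49% of all genes tested) and none higher (median -0.60). *SESA1*, a 2S albumin, was at 586, 379 and 455 CPM in *cs*-WA and 914, 1424 and 1476 CPM in *cs*-M (-1.51 ± 0.26, adjusted p = 5.56e-05), with no overlap. *CRC*, which encodes the globulin cruciferin C, was at 8629, 5289.5 and 5834 CPM in *cs*-WA and 8597, 13966 and 14132 CPM in *cs*-M (-0.98 ± 0.28, adjusted p = 0.00743). The *CRC* groups overlapped, since *cs*-WA replicate 1 was at the level of *cs*-M replicate 1, and without *cs*-WA replicate 2 the value was -0.78 (adjusted p = 0.0664). The other lower gene was *CRB* (-0.79, adjusted p = 0.0415). Its call was lost without *cs*-WA replicate 2 or 3 or *cs*-M replicate 2 or 3 (adjusted p = 0.0936 to 0.201). It was also lost without a filter on low counts (adjusted p = 0.0514) and with DESeq2 in place of edgeR (adjusted p = 0.0501). The oleosin *OLEO1*, which coats oil bodies, was at 1842, 1669.6 and 1845 CPM in *cs*-WA and 1852, 2804 and 2955 CPM in *cs*-M and was not called (-0.59 ± 0.26, adjusted p = 0.0835), but was without *cs*-M replicate 1 (-0.79, adjusted p = 0.0376). Of 8 oil body loci, 2 were lower (25%). The peroxygenase *ATS1* was at 219, 193 and 193 CPM in *cs*-WA and 239, 361 and 384 CPM in *cs*-M (-0.79 ± 0.21). The other was *ATS3* (-0.69, adjusted p = 0.018). The *ATS3* call was lost without *cs*-WA replicate 2 or 3 or *cs*-M replicate 2 or 3 (adjusted p = 0.0536 to 0.0896). Against untreated *cs*-ctrl tissue in place of *cs*-M, none of the following was called. *CRC* was at -0.00, *CRB* at 0.15, *ATS1* at -0.14 and *ATS3* at -0.14 on the log2 scale. Among late embryogenesis abundant genes 1 of 10 was called higher (10%, against 9.81% of all genes tested). It was *M10*, at 13.99, 0.447 and 1.41 CPM in *cs*-WA and 0.284, 0.164 and 0.3498 CPM in *cs*-M (4.19 ± 1.23). That call rested on *cs*-WA replicate 1 (1.67 without it, adjusted p = 0.385).

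Some genes of photosynthesis fell. Of 50 tested genes for photosystems, light harvesting and the Rubisco small subunit, 9 were lower (18%) and none higher (median -0.36). Of all genes tested, 8.49% were lower and 9.81% higher. *RBCS1A*, the main Rubisco small subunit gene, was at 2502, 1964 and 2716 CPM in *cs*-WA and 3736, 3012 and 3399 CPM in *cs*-M, apart but short of the fold threshold (-0.58 ± 0.18, adjusted p = 0.0167). *RBCS3B* was at 216, 101 and 191 CPM in *cs*-WA and 699, 496 and 580.2 CPM in *cs*-M (-1.88 ± 0.33), and 17% of its exon words are found elsewhere in the genome, so that its level is uncertain beside its near copies. The 4 leaf mesophyll markers, 2 of which are on this list, summed to 2341 to 3244 CPM in *cs*-WA and 3554 to 4371 CPM in *cs*-M. Their part in the result was not tested.

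Of 37 tested genes of the cell cycle, 3 rose (8.11%) and 2 fell (5.41%), close to the 9.81% and 8.49% of all genes tested, with a median log2 change of 0.08. *CYCD3;1*, a cyclin that drives entry into the cycle in response to cytokinin, was at 134, 119 and 115 CPM in *cs*-WA and 73.6, 65.8 and 74.9 CPM in *cs*-M (0.70 ± 0.11, adjusted p = 9.2e-06). The mitotic cyclin *CYCB1;1* was at 38.7, 45.5 and 41.3 CPM in *cs*-WA and 33.9, 30.7 and 34.8 CPM in *cs*-M (0.25 ± 0.12, adjusted p = 0.106) and was not called, though the groups were apart. *CYCA2;4* rose (0.98 ± 0.10) and *CYCA2;1* fell (-1.24 ± 0.21). Of 15 floral MADS genes, 4 rose (26.7%) and 1 fell (6.67%). The higher genes included *FUL* (0.83, adjusted p = 0.0296). Its call was lost without *cs*-WA replicate 1 or 3 or any 1 *cs*-M replicate (0.72 to 0.88). *SHP1*, a gene of carpels and fruit valves, was at 93.4, 95.9 and 99.1 CPM in *cs*-WA and 42.7, 47.2 and 45.03 CPM in *cs*-M (1.01 ± 0.15), with 18% of its exon bases under other genes. *AGL6*, a gene of flowers and ovules, was at 6.44, 7.85 and 7.36 CPM in *cs*-WA and 21.2, 21.5 and 20.9 CPM in *cs*-M (-1.63 ± 0.24, adjusted p = 6.83e-06). *AG* and *AP3*, the carpel and petal identity genes, were not called (-0.38 ± 0.22 and -0.50 ± 0.34). None of 6 tested PRC2 subunit genes was called.

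The combined treatment was also set against each of its parts. Against *cs*-A, 1079 genes (5.11%) were higher and 103 (0.488%) lower in *cs*-WA. Against *cs*-W, 1383 (6.55%) were higher and 1503 (7.12%) lower. The count of lower genes against *cs*-A was 51 without *cs*-WA replicate 2, 61 without *cs*-A replicate 1 and 161 without *cs*-A replicate 2. Against *cs*-W it was 858 without *cs*-WA replicate 2. These comparisons and that with *cs*-M share the *cs*-WA libraries.

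Gene groups differed in which part they stood above. Of the 28 *Aux/IAA* genes, 4 were higher in *cs*-WA than in *cs*-A and 20 higher than in *cs*-W. Of the 8 auxin inactivation genes these counts were 1 and 8. *GH3.3* averaged 2759 ± 323 CPM in *cs*-WA, 3169 ± 658 CPM in *cs*-A and 40.4 ± 6.496 CPM in *cs*-W (SD, n = 3 each), with log2 fold changes of -0.26 ± 0.28 over *cs*-A (adjusted p = 0.643) and 5.96 ± 0.35 over *cs*-W (adjusted p = 1.58e-13). The regeneration factor *ESR2* averaged 10.8 ± 1.14 CPM in *cs*-WA, 12.6 ± 0.993 CPM in *cs*-A and 0.349 ± 0.0272 CPM in *cs*-W. In these genes *cs*-W lay far below both groups with 2,4-D.

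The root hair list stood above both parts, with 8 of 11 genes higher in *cs*-WA than in *cs*-A and 9 higher than in *cs*-W. *RHD6* averaged 19.4 ± 2.59 CPM in *cs*-WA, 0.394 ± 0.0284 CPM in *cs*-A and 0.326 ± 0.0466 CPM in *cs*-W (log2 fold changes 5.52 ± 0.36 and 5.72 ± 0.38 over *cs*-A and *cs*-W). *COBL9* had 142 counts over the 3 *cs*-WA libraries and 1 count each over the 3 *cs*-A and the 3 *cs*-W libraries. *BRN1* had 223 counts in *cs*-WA, 1 in *cs*-A and 0 in *cs*-W. Of the 13 root patterning genes, 7 were higher in *cs*-WA than in *cs*-A and 10 higher than in *cs*-W, and of the 8 extensins 6 and 6. *PLT1* averaged 17.5 ± 3.93 CPM in *cs*-WA, 1.65 ± 0.795 CPM in *cs*-A and 0.376 ± 0.0241 CPM in *cs*-W (3.33 ± 0.39 and 5.38 ± 0.48). *LBD18* averaged 17.97 ± 1.69 CPM in *cs*-WA, 6.07 ± 0.772 CPM in *cs*-A and 0.633 ± 0.299 CPM in *cs*-W (1.51 ± 0.20 and 4.71 ± 0.26), and *WOX5* averaged 23.4 ± 1.91 CPM in *cs*-WA, 9.85 ± 1.45 CPM in *cs*-A and 4.23 ± 1.27 CPM in *cs*-W (1.19 ± 0.18 and 2.33 ± 0.19). For the 11 suberin and Casparian strip genes the counts were 7 and 6. *CYP86A1* averaged 8.25 ± 3.81 CPM in *cs*-WA and 5.05 ± 0.1696 CPM in *cs*-W, a difference that was not called (0.57 ± 0.26, adjusted p = 0.121), and had 3 counts over the 3 *cs*-A libraries.

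The largest changes against each part were again in genes near 0 counts there. Against *cs*-A they were *AT5G60530*, annotated as related to late embryogenesis abundant proteins, at 27.4, 40.6 and 16.9 CPM in *cs*-WA and 0 counts in each *cs*-A library (at least 142-fold), followed by *AT3G09925* and *MOP10*, both annotated in the Ole e 1 and extensin family, and the CAP family gene *AT5G57625*, at least 63.2-fold, 44.4-fold and 46.6-fold higher. Against *cs*-W they were the pectin methylesterase inhibitor *UNE11*, at 15.5, 17.3 and 13.7 CPM in *cs*-WA and 0 counts in each *cs*-W library (at least 72.8-fold), the cysteine proteinase *CEP2*, at 56.99, 64.8 and 49.9 CPM in *cs*-WA with 3 counts over the *cs*-W libraries, the protein kinase gene *AT2G46850* (at least 28.4-fold) and *AT2G03740* (at least 30.3-fold). In the other direction, the TRAF-like gene *AT2G32880* averaged 0.678 ± 0.46998 CPM in *cs*-WA and 6.59 ± 2.07 CPM in *cs*-A (-3.35 ± 0.46), and *AT3G25190*, of the vacuolar iron transporter family, 1.199 ± 0.122 CPM in *cs*-WA and 6.07 ± 0.643 CPM in *cs*-A (-2.40 ± 0.43). *ARR5* was higher, averaging 2.36 ± 0.756 CPM in *cs*-WA and 0.159 ± 0.116 CPM in *cs*-A (3.79 ± 1.00, adjusted p = 0.0144). Against *cs*-W, *VSP2* averaged 17.1 ± 7.65 CPM in *cs*-WA and 118 ± 60.2 CPM in *cs*-W (-2.91 ± 0.60), and *XTH7* 0.286 ± 0.0905 CPM in *cs*-WA and 17.6 ± 10.96 CPM in *cs*-W (-6.05 ± 0.58). The nitrate transporter gene *NRT2:1* was at 2 counts over the *cs*-WA libraries and averaged 5.08 ± 1.803 CPM in *cs*-W, with 8.9% of its exon words found elsewhere in the genome.

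Wild-type tissue given the same treatment moved more genes, 4858 higher (23%) and 5280 lower (25%) in WT-WA than in WT-M. The response of *clf swn* differed from that of wild type for 9539 genes (45.2%) by the genotype by treatment interaction, called at an adjusted p under 0.05 alone. The 2 responses share no libraries. Against that background the share of differing genes was 17 of 28 among *Aux/IAA* genes (12 more positive in *clf swn*), 6 of 8 among auxin inactivation genes (all more positive) and 3 of 11 among root hair genes (all more negative). All 50 genes for photosystems, light harvesting and Rubisco fell in wild type. Their median log2 change was -0.36 in *clf swn*, against -2.52 in wild type, and 48 of 50 interactions were called, all more positive in *clf swn*. *RBCS1A* had a log2 fold change of -0.58 ± 0.18 in *clf swn*, which was not called, and averaged 354 ± 59.5 CPM in WT-WA and 4850.1 ± 594 CPM in WT-M (interaction 3.21 ± 0.26, adjusted p = 1.12e-10). Of 24 jasmonate genes 18 fell in wild type, and 15 interactions were called, all more positive in *clf swn*.

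**Figure D4:**
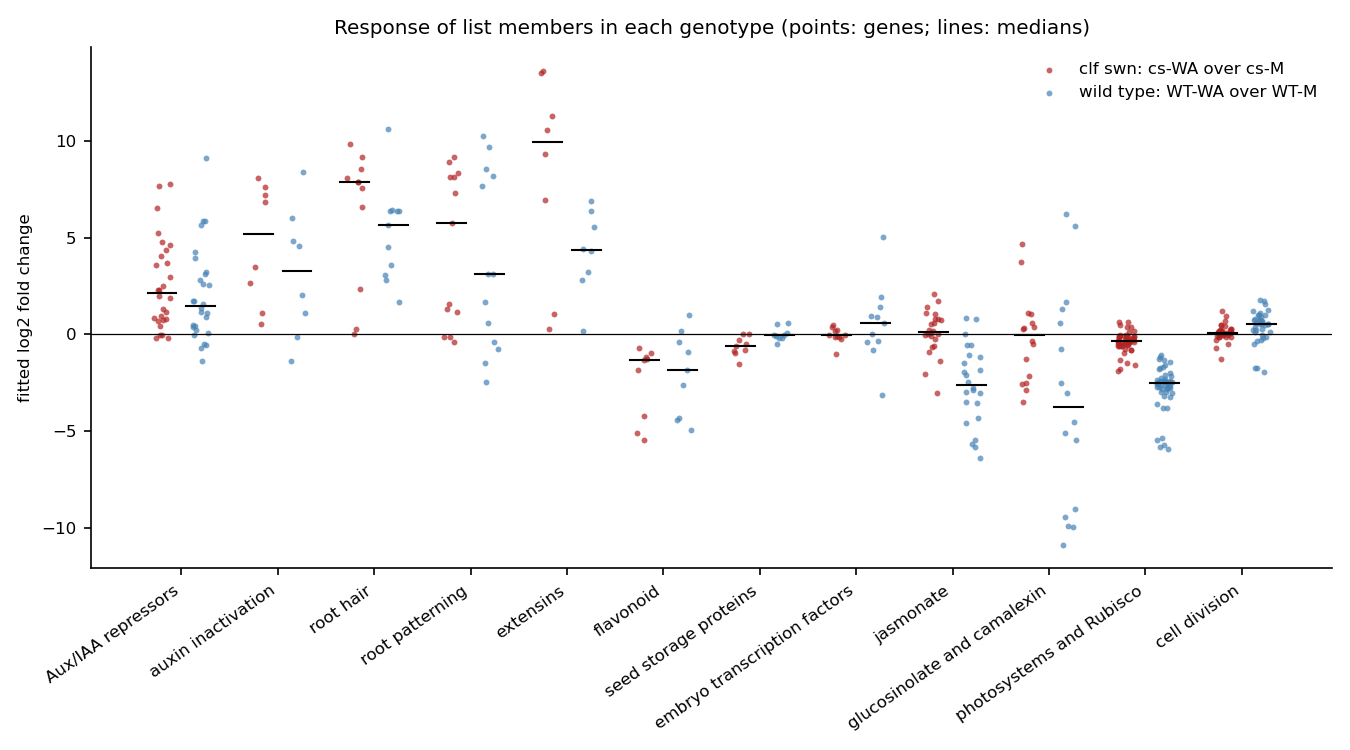
Fitted log2 fold change (vertical) of the tested members of 12 gene lists (points, with a line at the median) in *clf swn* (*cs*-WA over *cs*-M, red) and in wild type (WT-WA over WT-M, blue). Photosystem and Rubisco genes lie near 0 in *clf swn* (median -0.36) and lower in wild type (median -2.52), while the *Aux/IAA* medians are 2.14 and 1.48.

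Of 41 key genes tested, the interaction was called for 17, 8 more positive and 9 more negative in *clf swn*. Several of the differences lay in the mock level. *BBM* averaged 29.9 ± 5.11 CPM in *cs*-WA and 14.7 ± 3.42 CPM in *cs*-M, and 14.3 ± 4.395 CPM in WT-WA and 0.0442 ± 0.0398 CPM in WT-M (interaction -7.14 ± 0.71, adjusted p = 3.37e-09). *LBD16* averaged 22.6 ± 4.15 CPM in *cs*-WA and 1.86 ± 0.0769 CPM in *cs*-M, and 43.6 ± 5.26 CPM in WT-WA and 0.127 ± 0.0453 CPM in WT-M (-4.76 ± 0.48, adjusted p = 4.72e-09). *RHD6* averaged 48.4 ± 12.1 CPM in WT-WA and 0.0257 ± 0.0446 CPM in WT-M (-4.06 ± 1.14, adjusted p = 0.00451), and *WOX5* 57.5 ± 11.9 CPM in WT-WA and 2.68 ± 0.142 CPM in WT-M (-1.68 ± 0.28, adjusted p = 1.48e-05). The wild-type levels after treatment exceeded those of *cs*-WA in *LBD16*, *RHD6* and *WOX5* and not in *BBM*. *BBM* had 2 counts and *RHD6* 1 count over the WT-M libraries, so that these interactions depend on the prior count. Without WT-M replicate 1, which held its count, the *RHD6* interaction was -5.88. *LEC1* averaged 0.278 ± 0.07198 CPM in WT-WA and was at 0 counts in WT-M, and *WUS* was at 0 counts in WT-WA and averaged 0.629 ± 0.193 CPM in WT-M, so that their interactions (-5.14 ± 1.14 and 6.62 ± 1.14) likewise depend on the prior count. *PR1* averaged 553 ± 142 CPM in WT-WA and 9.701 ± 12.2 CPM in WT-M (-8.11 ± 2.18, adjusted p = 0.00322), and without *cs*-M replicate 2 its interaction was -1.79 (adjusted p = 0.958), and without WT-M replicate 3 it was -9.94. *ERF115* averaged 19.99 ± 5.57 CPM in WT-WA and 0.0515 ± 0.0891 CPM in WT-M (-4.79 ± 1.70, adjusted p = 0.0221), and without *cs*-M replicate 1 its interaction was -1.95 (adjusted p = 0.85), and without WT-M replicate 1, which held the only counts of that group, it was -7.40.

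For some key genes of the auxin response the interaction was not called. *MP* averaged 203 ± 21.04 CPM in WT-WA and 111 ± 1.998 CPM in WT-M (interaction 0.23 ± 0.15, adjusted p = 0.215). *GH3.3* averaged 2272 ± 357 CPM in WT-WA and 35.6 ± 10.03 CPM in WT-M (0.87 ± 0.40, adjusted p = 0.0786), a difference that was called with the replicate block (0.87, adjusted p = 0.0246). *YUC4* fell further in wild type, averaging 0.5603 ± 0.176 CPM in WT-WA and 6.13 ± 2.998 CPM in WT-M (2.26 ± 0.41, adjusted p = 5.34e-05). *ESR1* and *ESR2* averaged 0.648 ± 0.673 and 1.57 ± 0.678 CPM in WT-WA and 0.634 ± 0.364 and 0.477 ± 0.207 CPM in WT-M, and both rose more in *clf swn* (2.47 ± 0.65, adjusted p = 0.00254, and 2.096 ± 0.67, adjusted p = 0.0119), the second with an adjusted p of 0.072 without WT-M replicate 3. The *ESR1* difference was 3.78 without WT-WA replicate 3. *ABI3* averaged 1.35 ± 0.107 CPM in WT-WA and 0.663 ± 0.346 CPM in WT-M, and *CRC* 23.2 ± 2.34 CPM in WT-WA and 24.5 ± 6.09 CPM in WT-M, far under the *clf swn* levels, with interactions that were not called without the replicate block (-0.94 ± 0.39, adjusted p = 0.0524, and -0.89 ± 0.39, adjusted p = 0.0672) and called with it (-0.95, adjusted p = 0.0131 and -0.89, adjusted p = 0.0445).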

How the data were processed

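RNA was sequenced from 35 libraries of dissected shoot tissue, of which the 6 *cs*-WA and *cs*-M libraries are described. The deposited values are raw read counts per gene, which the authors made on TAIR10 with FastQC, Trimmomatic 0.32, TopHat2 2.0.10 (unique alignments) and HTSeq; the strand setting is not given in the sources used here. Library totals ran from 11436071 to 15661317 counts in the 6 libraries and from 11375703 to 18094983 in all 35. No column was left without a sample.

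Counts were filtered with filterByExpr, scaled by TMM and fitted with edgeR 4.0.16 (limma 3.58.1, R 4.3.3) in 1 quasi-likelihood model of 10 groups. Calls used Benjamini-Hochberg adjustment (threshold 0.05) and, except for interactions, a fitted log2 change of 0.6 or more in size. CPM used each library's own total. A gene at 0 counts in every library of a group was set to 3 counts per library for a lower bound; a total of 1 to 3 counts was given as a ratio with an exact 95% interval. Genes were named from 36 lists by fixed rules: key genes whatever their result, the 8 called genes with the largest change in each direction (mean of at least 5 CPM, groups apart), up to 3 called members of each list in each direction, up to 5 genes switched on or off, and 4 in each direction against *cs*-A and *cs*-W. Some of the genes these rules select are given only in the counts of their list, and 1 is not reported here. Genes named beyond these were chosen after their values were seen. The members and lists were chosen with earlier results of these data known, and 9 list symbols could not be matched.

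Replicates of a number were made at one time and sequenced in one lane, per the study's methods, so the number marks a batch and pairs the samples. Between *cs*-WA and *cs*-M, deviations from the group means correlated at -0.07, -0.08 and 0.06 for same-numbered samples. Between *cs*-WA and *cs*-A they correlated at 0.46, 0.47 and 0.23. Over all 28 group pairs the correlations ran from -0.29 to 0.57, and every correlation was over 0.1 in 4 pairs. The main model leaves this pairing out. Promoters and overlaps were read from RefSeq on TAIR10.1, matched by gene identifier (28009 of 28775). Alternatives were RLE scaling, other filters, the replicate block, only the libraries compared, each library left out, other thresholds, *cs*-ctrl as reference and DESeq2 1.42.0.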

Additional observations from a re-analysis of the deposited data

Results flagged for a closer look

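For 17 of the 41 key genes tested, the change from mock to the combined treatment differed between *clf swn* and wild type by the interaction term of the same edgeR model (adjusted p under 0.05), against 45.2% of all genes tested. Values are the log2 fold change in *clf swn* minus that in wild type. It was positive for *YUC4* (2.26), *WUS* (6.62), *ESR1* (2.47), *ESR2* (2.1), *SCR* (0.61), *CYCD3;1* (0.71), *RBCS1A* (3.21) and *AG* (1.91). It was negative for *LBD16* (-4.76), *BBM* (-7.14), *WOX5* (-1.68), *WIND1* (-0.86), *ERF115* (-4.79), *LEC1* (-5.14), *AGL15* (-1.46), *RHD6* (-4.06) and *PR1* (-8.11). The *AG* call (adjusted p = 0.0464) was lost without any 1 of 9 libraries, with values of 1.37 to 2.02, and without a filter on low counts (adjusted p = 0.0511); without WT-WA replicate 2 it was 2.82. The *ERF115*, *PR1* and *ESR2* calls each depended on 1 library, namely *cs*-M replicate 1 (-1.95 without it), *cs*-M replicate 2 (-1.79) and WT-M replicate 3 (1.73). Groups of 3 samples are too small for a test of single outlying samples.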

How the results depend on the processing

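Of 148 named genes called between *cs*-WA and *cs*-M, 141 kept their call under RLE scaling, no filter, the replicate block, only the libraries compared and DESeq2, 134 with *cs*-ctrl as reference, and 126 without each library in turn. Those not called against *cs*-ctrl were *CRC*, *CRB*, *ATS1*, *ATS3*, *BZIP67*, *M10*, *YUC2*, *YUC6*, *CLV1*, *ERF113*, *ARR15*, *AT5G58400*, *APL* and *CYP83A1*. Requiring 10 counts in every library gave 1124 genes higher and 1468 lower than in *cs*-M. It gave 380 higher and 51 lower than in *cs*-A, and 770 higher and 1248 lower than in *cs*-W. With the adjusted p alone, 3442, 394 and 2765 genes were lower than in *cs*-M, *cs*-A and *cs*-W, and with the rule of the study, a log2 ratio of at least 0.6 between the nearest libraries of the groups, 676, 33 and 476. Higher than in *cs*-M were 3080 genes with the adjusted p alone and 1576 with the rule of the study. Genes switched on numbered 76 with 0 mock counts, and 392 or 135 at 0.5 or 2 CPM. Leaving out 1 library gave 1192 to 1726 genes lower than in *cs*-M (lowest without *cs*-WA replicate 2), 51 to 161 lower than in *cs*-A and 858 to 1485 lower than in *cs*-W. The cause was not tested.

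With the replicate block, 2211 genes were higher and 1697 lower than in *cs*-M, and 9947 interactions were called. It ended the calls of *ERF113*, *ARR15* and *AT5G58400* and of no other named gene, and added the genotype differences of *GH3.3*, *ABI3*, *CRC* and *AP3*.

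Directions turned only in changes that were not called, apart from *CRB*. *ABI3* was at 0.0315 with RLE scaling and DESeq2, 0.0267 unfiltered, 0.0176 with 10 counts, 0.0276 with the block and 0.039 on the libraries compared. With *cs*-ctrl as reference *STM* was at 0.346, *ARR5* at 0.133, *CRB* at 0.152, *AT1G67865* at 0.377 and *NRT2:1* at 1.42. Without 1 library, *ABI3* ran from -0.0227 to 0.0502, *LEC1* from -0.23 to 0.0052, *CLF* from -0.0036 to 0.39, *ARR5* from -1.30 to 0.16, *PR1* from -3.04 to 4.06, *CYP79B2* from -0.38 to 0.72 and *CASP1* stayed at 0. Genotype differences ran from -0.0515 to 1.41 for *ARR5*, -0.33 to 0.36 for *VSP2* and -0.98 to 0.084 for *CYP79B2*.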

Other observations

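Called genes that followed each other in the order of tested genes on a chromosome and moved the same way were listed in runs of at least 3. Genes that were not tested can lie between them. There were 60 runs of genes that rose, with 192 of the 2071 higher genes. Genes that fell made 24 runs, with 74 of the 1792 lower genes, and no run was longer than 4. Whether these numbers exceed those of a random gene order was not tested. The runs named here were chosen after their values were seen. The glutathione transferase genes *GSTU4*, *GSTU3*, *GSTU2* and *GSTU1* rose side by side on chromosome 2 (12626478 to 12632538, TAIR10.1), as did *BEN1*, *LBD19*, *LBD18* and *AHL22* (18703772 to 18729272). *GH3.2* rose between *AT4G37380* and *CYP81F3*, with *CYP81D8* beyond. Among genes that fell, *RBCS3B*, *RBCS2B* and *RBCS1B* formed a run of 3 on chromosome 5, and near copies of this kind share part of their exon sequence.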
